A study of Mus musculus with 26 samples.

Results

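The 42 genes described here are a set of cell cycle genes, 24 that act in mitosis and 18 that act in DNA replication, chosen by name. They were measured in 26 mouse skin cell lines, each hybridised once to an Affymetrix M430 array, and all values are log2 RMA values (background-corrected, quantile-normalised and summarised per probe set). A single-gene probe set was found for 41 of the 42, 23 mitotic and 18 S-phase members, out of 18193 genes in the table. Ccnb1, which encodes cyclin B1, was named by no single-gene probe set and has no value here. Each member is represented by the probe set with the highest mean over the 26 arrays. All 41 members passed the filter on low values that left 12641 genes for testing, and 38 of them lay above the array median in every line. Cdc6 and Ccne2 were below it in 1 line, and Tyms was above it in 16 lines only, so its values lie close to background.

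The lines stand for steps of skin tumour development, and all were harvested while growing in serum. The keratinocyte lines were C5N and NK, and NK came from a p53 null mouse. P6 was derived from a benign papilloma. Spindle pathology was recorded as absent in 12 carcinoma lines, namely PDV, PDVC57, E4, B9, B9ras, B9rassmad, MSCP5, MSCP1, MSC12, MSC11B, MSC7A and SN161. Of these, SN161 came from a tumour of a Spretus/NIH cross and the 5 lines whose names start with MSC from Spretus/CBA crosses. It was recorded as present, which means an elongated growth form that resembles fibroblasts, in 7 carcinoma lines, namely A5, CarB, CarC, D3, D3DP, H11 and MSN2. No group was given to 2945CA and MSCb1, whose spindle state is not stated (MSCb1 is a Spretus/CBA line), or to B9Smad and Hrasnull, whose labels conflict. The labels give no further genotype, passage or clone, and do not explain the line names. Nothing in them shows more than 1 culture per line, so every p-value measures the spread between lines. Lines that share a name, such as D3 and D3DP, were fitted as separate lines.

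The marker lists bear on these labels. The mean of 12 keratinocyte markers was 11.56 and 11.64 in the keratinocyte lines, 4.94 to 6.58 in the spindle lines and 4.68 to 12.17 in the non-spindle lines, where MSC12, MSC7A and MSC11B were at 4.68, 5.03 and 6.07. The mean of 11 fibroblast markers, of which 10 passed the filter, was 4.83 to 5.24, 5.58 to 10.10 and 4.95 to 10.27 in the same groups. Means of 8 immune, 6 endothelial and 6 melanocyte markers, of which 4, 4 and 2 passed the filter, lay at or below 5.49 in all 26 lines, where the array medians were 5.04 to 5.15. These means include markers at background, and single markers were higher. The macrophage marker Cd68 had a median of 5.59 in the 23 lines other than CarC, MSCb1 and 2945CA, and was 4.4 above it in SN161, the highest line, and at 7.59 in 2945CA, and the myeloid marker Lyz2 was at 8.09 in MSC12. The pan-leukocyte marker Ptprc was at 4.98 or below in those 23 lines (3.44 in SN161) and at 3.31 in 2945CA, and did not pass the filter.

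A dividing cell makes most of its cell cycle transcripts in successive waves. At the start of S phase E2F factors switch on genes of the replication machinery, which load the MCM helicase on origins, supply nucleotides and copy the DNA. Later, in G2 and mitosis, the MuvB complex with B-MYB and FOXM1 switches on genes that build the spindle, attach chromosomes and split the cell. Many of the later genes carry a CHR element with CCAAT boxes, whereas the earlier ones carry E2F sites. In a culture of mixed phases the transcripts rise with the share of cycling cells, and in such bulk RNA fewer cycling cells and less RNA per cycling cell cannot be told apart.

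The promoters of the members show this division in their letters. RefSeq promoters (build GRCm38.p6, 250 bases before to 50 after the start) were matched for 34 of the 42 members, 19 mitotic and 15 S-phase. Each window was searched on both strands for the CHR word TTTGAA, the box CCAAT and the E2F words TTTCCCGC, TTTCGCGC, TTTGCCGC and TTTGGCGC, counting overlapping matches. CHR words were found in 14 of 19 mitotic members (73.7%, exact 95% binomial interval 48.8% to 90.9%) and in 1 of 15 S-phase members (6.67%, 0.169% to 31.9%). Of the promoters of 10159 tested genes, 14.2% held one. E2F words were found in 1 of 19 mitotic members (5.26%, 0.133% to 26%) and 7 of 15 S-phase members (46.7%, 21.3% to 73.4%), beside 4.68% of the tested genes. CCAAT was in 17 of 19 mitotic members (89.5%, 66.9% to 98.7%), 9 of 15 S-phase members (interval 32.3% to 83.7%) and 42.9% of the tested genes. The CHR share depends on the window, since 7 of the 14 mitotic members had the word only in the 50 bases after the start. Before the start it was in 7 of 19 (36.8%), beside 12.7% of the tested genes. E2F words were found before the start in 5 of 15 S-phase members (33.3%, 11.8% to 61.6%), beside 3.91% of the tested genes. A match is a run of letters and not evidence that a factor binds there.

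The stretch of 250 bases before the start is shown for 3 mitotic and 3 S-phase members. They were chosen because they carry the words that divide the classes and the results return to them. Over 26 lines Ccnb2 followed the mitotic class least, and Cdc6 and Mcm5 followed theirs closely. Cdk1 entered the comparison of Spretus-cross lines. Sequences are RefSeq's on build GRCm38.p6, 5′ to 3′ on the strand of the gene, in lower case with the CHR, CCAAT and E2F matches of either strand in capitals. They lie at chr9:70421555-70421804 (minus strand) for Ccnb2, chr10:69352913-69353162 (minus strand) for Cdk1, chr4:118437344-118437593 (minus strand) for Cdc20, chr8:75109259-75109508 (plus strand) for Mcm5, chr1:128359706-128359955 (minus strand) for Mcm6 and chr11:98907901-98908150 (plus strand) for Cdc6.
Ccnb2: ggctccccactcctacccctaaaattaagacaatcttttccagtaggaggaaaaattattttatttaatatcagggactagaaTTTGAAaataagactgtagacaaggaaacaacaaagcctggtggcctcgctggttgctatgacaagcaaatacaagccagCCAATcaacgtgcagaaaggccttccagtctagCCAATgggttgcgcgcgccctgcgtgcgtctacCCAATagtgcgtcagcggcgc
Cdk1: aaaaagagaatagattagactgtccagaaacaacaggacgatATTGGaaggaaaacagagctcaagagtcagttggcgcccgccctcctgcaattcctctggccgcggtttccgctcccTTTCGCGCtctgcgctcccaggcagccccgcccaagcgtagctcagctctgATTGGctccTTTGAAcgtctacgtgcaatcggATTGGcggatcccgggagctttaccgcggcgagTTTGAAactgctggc
Cdc20: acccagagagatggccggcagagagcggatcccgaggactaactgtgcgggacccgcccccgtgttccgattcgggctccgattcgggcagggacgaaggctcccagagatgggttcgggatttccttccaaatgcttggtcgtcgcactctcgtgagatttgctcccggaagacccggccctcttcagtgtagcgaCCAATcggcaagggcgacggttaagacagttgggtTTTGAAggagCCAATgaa
Mcm5: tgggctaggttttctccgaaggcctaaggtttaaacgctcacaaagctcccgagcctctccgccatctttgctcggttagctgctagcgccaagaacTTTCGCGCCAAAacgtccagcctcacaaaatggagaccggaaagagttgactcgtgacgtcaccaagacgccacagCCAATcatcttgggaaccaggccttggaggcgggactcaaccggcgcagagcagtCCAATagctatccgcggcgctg
Mcm6: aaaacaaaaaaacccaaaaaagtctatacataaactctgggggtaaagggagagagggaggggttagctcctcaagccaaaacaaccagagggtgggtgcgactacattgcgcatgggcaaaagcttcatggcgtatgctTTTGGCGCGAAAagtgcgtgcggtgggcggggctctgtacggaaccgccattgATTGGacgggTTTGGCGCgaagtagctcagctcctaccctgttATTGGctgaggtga
Cdc6: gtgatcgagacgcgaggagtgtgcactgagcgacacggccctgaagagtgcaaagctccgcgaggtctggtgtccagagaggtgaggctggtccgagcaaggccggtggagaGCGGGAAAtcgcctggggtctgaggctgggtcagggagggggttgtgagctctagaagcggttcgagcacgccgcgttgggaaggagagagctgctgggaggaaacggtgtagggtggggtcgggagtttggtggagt

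In these stretches Ccnb2 held a CHR word 167 bases before the start and CCAAT boxes at 87, 54 and 21 bases. Cdk1 held CHR words at 71 and 15 bases, CCAAT boxes at 208, 80 and 48 bases on the other strand, and an E2F word at 131 bases, as the only mitotic member with one. Cdc20 held CCAAT at 53 and 8 bases and a CHR word at 18. In Mcm5 overlapping E2F words on opposite strands started at 153 and 149 bases, and in Mcm6 at 110 and 106, with a further one at 47. Mcm5 had CCAAT at 77 and 22 bases and Mcm6 at 57 and 14. Cdc6 held 1 E2F word, at 138 bases, and none of the other words.

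Over the 26 lines, the mean of the 23 mitotic members ran from 7.69 in CarC to 10.51 in CarB, with a median of 10.07. The mean of the 18 S-phase members ran from 7.14 in CarC to 10.35 in D3. On the mitotic scale CarC was lowest, followed by MSCb1 (8.06), 2945CA (9.31), SN161 (9.36), Hrasnull (9.44) and the papilloma line P6 (9.54), and the other 20 lines lay between 9.68 and 10.51. The S-phase order began with CarC, SN161 (8.83), 2945CA (8.91), MSCb1 (9.08) and Hrasnull (9.26). With 1 array per line, neighbours in these orders have no spread of their own and cannot be ranked with any certainty. CarC and MSCb1 are the lines that stand clear of the rest on the mitotic scale, and CarC alone does on the S-phase scale.

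**Figure D1:**
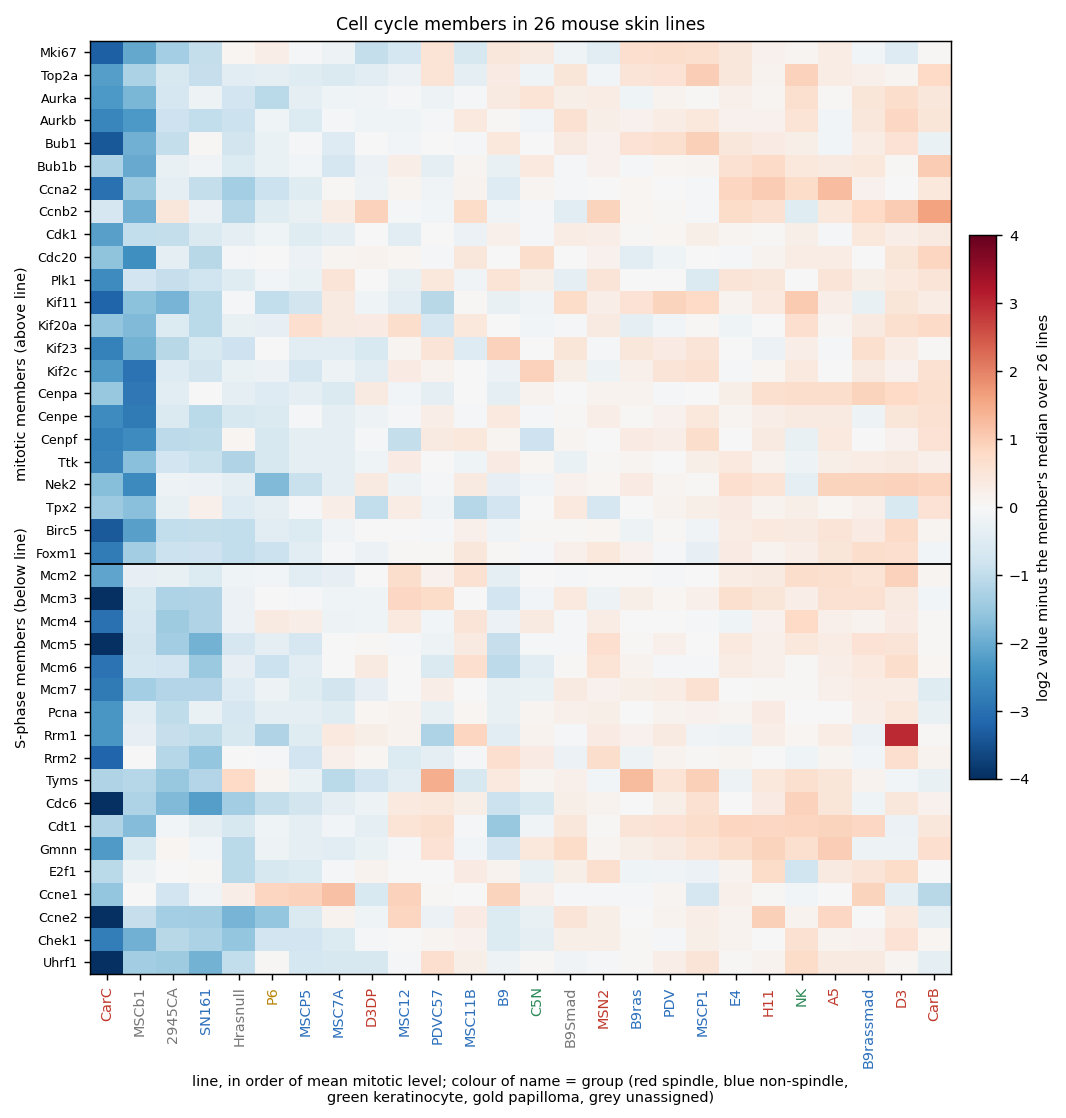
Levels of the 41 measured members (rows, 23 mitotic above the line and 18 S-phase below it) in the 26 lines (columns, ordered by mean mitotic level). Colour gives the log2 value minus the member's median over the 26 lines, blue for lower and red for higher, and the CarC column is blue in every row while the MSCb1 column is a deeper blue above the line than below it and the red Rrm1 cell marks D3.

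The members varied more between lines than most genes did, and CarC, MSCb1 and 2945CA carried most of that. The median SD over 26 lines was 0.78 for the members and 0.49 for all 12641 genes, and 41 of 41 members were above the latter. Among the 23 lines without CarC, MSCb1 and 2945CA the median SD was 0.47 for the members and 0.46 for all genes, and 23 of 41 members were above it. The largest SDs over 26 lines belonged to Cdc6 (1.08), which loads the helicase on origins, Ccne2 (1.07), a cyclin E, and Uhrf1 (1.03), which keeps DNA methylation through replication. E2f1 (0.49), a transcription factor of the G1 to S transition, had the smallest.

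CarC, a spindle line, was below all of the other 23 lines in 21 of 23 mitotic and 16 of 18 S-phase members. The share of all genes below that range was 9.94%. CarC, MSCb1 and 2945CA were picked with these values known, so what follows describes them and tests nothing. The median difference between CarC and the median of the other 23 lines was -2.56 over mitotic members, -2.84 over S-phase members and -0.01 over all genes. Every one of the 41 members was below that median in CarC. Ccnb2, Nek2, Cdt1 and E2f1 were the 4 members within the range of the other lines. No member lay above that range in CarC, MSCb1 or 2945CA, where 9.94%, 10.3% and 4.97% of all genes did.

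The largest gaps in CarC were in replication genes. Uhrf1 was at 6.22 in CarC against a lowest, median and highest of 8.59, 10.53 and 11.21 in the other 23 lines, 19.8-fold below the median. Ccne2 was at 4.47 against 6.69, 8.69 and 9.50, which is 18.6-fold below the median. Cdc6 was at 4.45 against 6.30, 8.63 and 9.41, or 18.1-fold lower. Ccne2 and Cdc6 lay below the CarC array median of 5.06, where a fold change is compressed. Of the helicase subunits, Mcm5 was at 7.04 in CarC (other lines 9.26 to 11.81, 17.6-fold below their median) and Mcm3 at 5.92 (8.71 to 10.73, 16.7-fold). Mcm4, Mcm6, Mcm7 and Mcm2 were 8.27-, 8.06-, 7.17- and 4.34-fold below their medians, so all 6 subunits were below every other line. Rrm2, the regulated subunit of the reductase that makes deoxyribonucleotides, was at 8.37 (median 11.58, highest 12.25) and its partner Rrm1 at 8.69 (9.79 to 13.99). Pcna, the sliding clamp of the DNA polymerases, was at 10.71 (12.34 to 13.44), and Chek1, the kinase that answers stalled forks, at 5.75 (6.98 to 9.14). Gmnn, the inhibitor of Cdt1, was at 7.36 (8.53 to 10.61), whereas the licensing factor Cdt1 itself was at 9.30, inside the range of 8.99 to 11.39.

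Among mitotic members the gap in CarC was wide for the proliferation marker Mki67, at 8.38 against 10.69, 11.71 and 12.35, a difference of -3.33 from the median. The checkpoint kinase gene Bub1 was at 6.90 against 9.56, 10.33 and 11.26 (10.8-fold), and Birc5, which encodes survivin of the chromosomal passenger complex, at 7.47 against 9.85, 10.86 and 11.59 (10.5-fold). Kif11, the motor that separates the spindle poles, was at 5.59 against 7.67, 8.93 and 9.84 (10.2-fold). All 4 lay more than 2 log2 units below the lowest of the 23 lines. The narrowest gap was that of cyclin B2, Ccnb2, at 9.29, which is inside the other lines' range of 8.84 to 11.57. Cdc20, which activates the anaphase-promoting complex, was 3.10-fold below its median, the centromeric histone Cenpa 2.93-fold, the spindle assembly factor Tpx2 2.89-fold and the checkpoint protein gene Bub1b 2.50-fold.

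**Figure D2:**
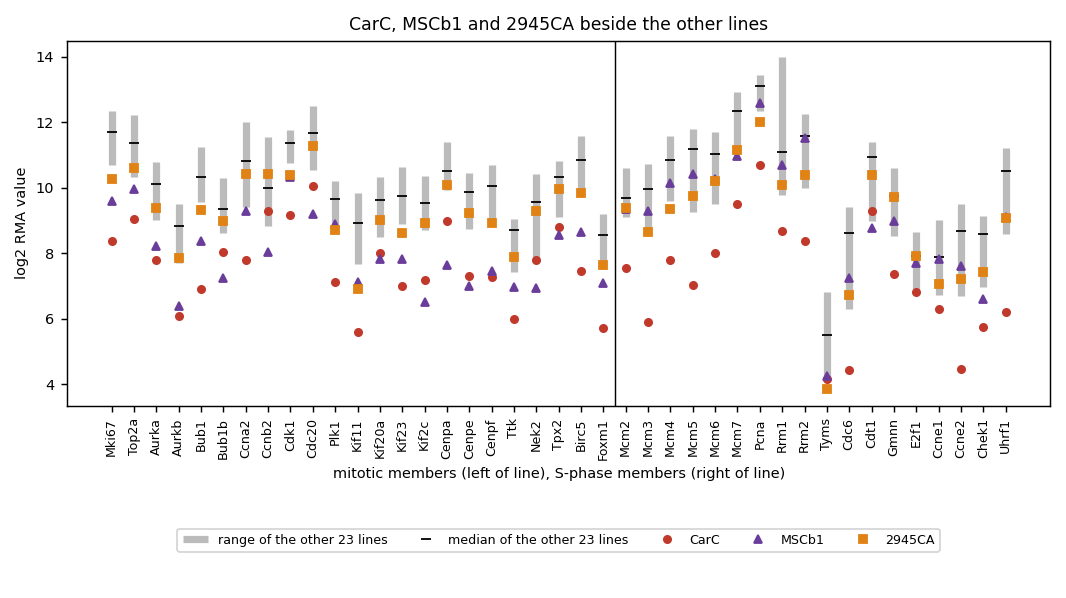
Level of each measured member in CarC, MSCb1 and 2945CA (symbols) beside the range and median of the other 23 lines (grey bars and black ticks), on the log2 RMA scale. CarC lies below the bars for 21 of 23 mitotic and 16 of 18 S-phase members, MSCb1 for 22 and 3, and 2945CA for 7 and 5.

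The other genes of both programmes, from wider lists, were low in CarC too. Of 52 other mitotic genes 44 were below the range of the 23 lines, and of 51 other replication genes 43 were, with median differences of -2.37 and -2.12. The widest gaps were those of the mitotic kinase gene Pbk (-3.97), of Fbxo5 (-3.93), an inhibitor of the anaphase-promoting complex, and of the repair genes Exo1 (-4.29) and Rad51ap1 (-4.08). Dut, which clears dUTP, was the replication gene that lay above the range in CarC, at 11.46 against 8.64 to 11.19. Of 18 E2F, Myb and DREAM regulators 8 were below the range, among them E2f7 (4.19 against 7.37 to 9.02), a repressor that is itself an E2F target, and Mybl2 (4.28 against 5.99 to 9.01), the B-MYB gene. Of 16 CDK inhibitor and growth arrest genes 1 was below the range (Gadd45b, 7.05, with CarB next at 7.65) and 3 were above it. Those 3 were Cdkn2c at 12.08 (7.47 to 10.71), which encodes the CDK4 and CDK6 inhibitor p18, the stress gene Gadd45a at 11.82 (5.80 to 10.95), and Gas2 at 8.16 (3.71 to 7.16), named for its expression in growth-arrested cells. For Cdkn2c and Gas2 the highest of the 23 lines was CarB, at 10.71 and 7.16. The widest drops of this list in CarC were inside the range, because CarB was as low. Cdkn2b, which encodes the inhibitor p15, was at 4.81 in CarC and 4.4 in CarB beside a median of 9.20, and Cdkn2a, the locus of p16 and p19ARF, at 4.37 and 3.98 beside 7.90. Above-range values in CarC were found for 9.94% of all genes.

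CarB is the line nearest to CarC over all genes (array correlation 0.968), and it had the highest mitotic mean of the 26. All 41 members were higher in CarB than in CarC, by a median of 2.86 for mitotic and 2.90 for S-phase members, beside -0.06 over all genes. Cdc6 was at 8.66 in CarB, 4.21 above CarC, and Mki67 was at 11.70, 3.32 above it. The fibroblast marker mean was 10.10 in CarC and 9.05 in CarB, and the keratinocyte marker mean 4.94 and 5.43. MSC12 had a fibroblast marker mean of 10.27 with a mitotic mean of 9.94. Further probe sets of the members gave the same picture for CarC. Of 43 others that were above the array median on 13 or more lines, all 43 were below the median of the 23 lines in CarC and 31 were lowest there. The table holds no control probe sets, so RNA quality could not be examined.

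MSCb1 was low in mitotic genes and less so in replication genes. It was below the range of the 23 lines in 22 of 23 mitotic members but in 3 of 18 S-phase members (Mcm7, Cdt1 and Chek1), where 10.2% of all genes were below. All 23 mitotic and all 18 S-phase members were below the median of those lines in MSCb1. Median differences were -1.94 and -0.75, and 0.04 over all genes. The kinesin gene Kif2c was at 6.51 in MSCb1 against 8.72, 9.53 and 10.36 in the other lines (8.12-fold below the median). Cenpa was at 7.65 against 9.93, 10.53 and 11.40 (7.38-fold), and the kinetochore motor gene Cenpe at 7.01 against 8.75, 9.88 and 10.45 (7.30-fold). For these 3 genes, and for Nek2, Cdc20, Ccnb2, Bub1b, Kif20a and Tpx2, MSCb1 was lower than CarC on the probe sets used. Further probe sets kept this order for Cenpe and Cdc20. They turned it for Kif2c (6.83 and 6.93 in MSCb1, 6.76 and 6.78 in CarC). For Cenpa, Nek2, Bub1b and Tpx2 they gave both orders. The values of 6.93 for Kif2c and 5.02 for Cenpa in MSCb1 were inside the range of the other lines. Plk1, a kinase that drives mitotic entry, was the mitotic member inside the range on the probe sets used, at 8.89, just above the lowest of the others (8.86).

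On the replication side Rrm2 was at 11.54 in MSCb1, beside a median of 11.58, and Ccne1 at 7.84 beside 7.90. Mcm2, Mcm3, Mcm4, Mcm5 and Mcm6 were 1.26- to 1.70-fold below their medians, inside the range of the other lines. Cdt1 (8.78 against 8.99 to 11.39) and Chek1 (6.60 against 6.98 to 9.14) were the replication members with the widest gaps. The wider lists showed less of a split. Of 52 other mitotic genes 33 were below the range (median difference -1.42), led by Aspm (-3.49) and Cdca8 (-3.04), a passenger complex subunit. Of 51 other replication genes 24 were below it (median -1.18), led by Exo1 (-2.65) and Dbf4 (-2.51), which activates the Cdc7 kinase. Of the growth arrest list, Gas1 was above every other line (13.37 against 6.09 to 12.68) and none was below the range. The keratinocyte marker mean of MSCb1 was 8.03 and its fibroblast marker mean 6.30, both inside the range of the other lines.

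In 2945CA the members were lower by less, and more so in replication genes. It was below the range in 7 of 23 mitotic members (Mki67, Bub1, Cdk1, Plk1, Kif11, Kif23 and Cenpf) and 5 of 18 S-phase members (Mcm3, Mcm4, Mcm7, Pcna and Tyms), where 4.15% of all genes were below. Kif11 was at 6.93 against a lowest of 7.67 and a median of 8.93. Median differences were -0.76 for mitotic and -1.17 for S-phase members, and 0.01 over all genes. Cdc6 was at 6.72 beside a median of 8.63 and Ccnb2 was 0.41 above its median. SN161, which is inside the 23, was close to it, with median differences from the other 22 lines of -0.92 for mitotic members and a wider gap for S-phase members, led by Cdc6 at -2.34. Cd68 was above its median in both lines, as given with the markers, and its part in these levels was not tested.

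Over the members, the S-phase mean minus the mitotic mean sets MSCb1 apart. Its size depends on the probe sets used and only its differences between lines can be read. It was 1.02 in MSCb1 and between -0.70 (CarB) and 0.14 (MSC12) in the other 25 lines. CarC, at -0.55, was inside that range. B9 (-0.55) and SN161 (-0.52) were also low, and in B9 Cdt1 was at 8.99 while Kif23, which acts in cytokinesis, was highest of all lines at 10.65. In the wider lists MSCb1 stood out little by this measure. Its means there were 7.99 for other mitotic and 7.89 for other replication genes, beside 9.27 and 9.14 in MSC12. Over 26 lines the means of both classes correlated (Pearson's r = 0.89, Spearman's rho = 0.83), over 24 lines without MSCb1 and CarC as well (0.88 and 0.79), and over the 23 lines (0.85 and 0.76). Both means come from the same array, and this is a description.

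**Figure D3:**
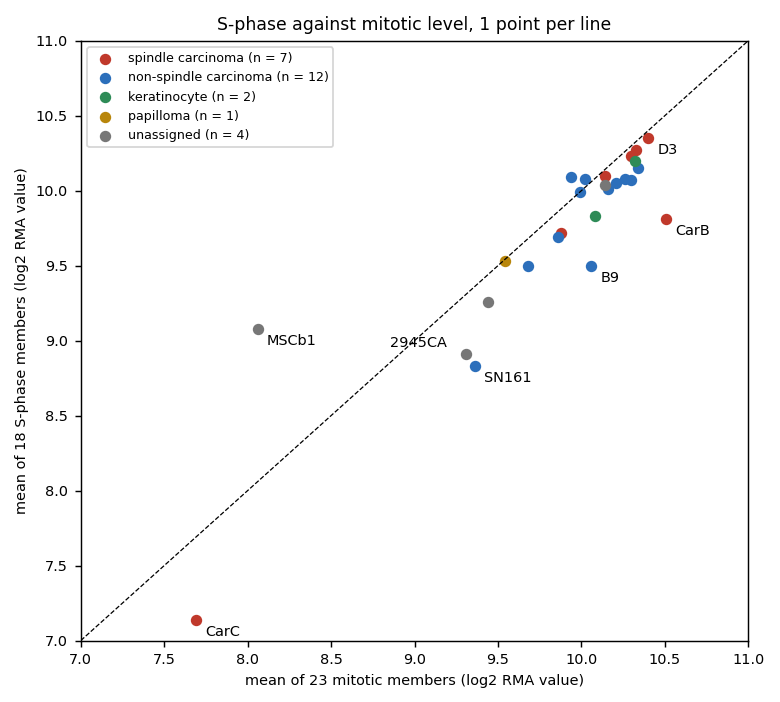
Mean of the 18 S-phase members against the mean of the 23 mitotic members, on the log2 RMA scale, with 1 point per line coloured by group and a dashed line where both are equal. CarC is low on both axes, at 7.69 and 7.14, and MSCb1 is the point far above the dashed line, at 8.06 and 9.08.

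Single members followed their class to different degrees. Each member was correlated with the mean of the other members of its class. The median correlation was 0.87 for mitotic and 0.90 for S-phase members over 26 lines. Over the 23 lines these medians were lower, at 0.67 and 0.74. Correlations above 0.8 fell from 20 to 4 of 23 mitotic members and from 11 to 6 of 18 S-phase members. The lines left out thus carried part of the correlation over 26 lines. Over 26 lines Birc5 (0.97), Cenpe and Aurkb (0.96 each) led the mitotic members, and Cdc6 and Mcm5 (0.96 each) the S-phase members. Ccnb2 had the lowest value of the mitotic class over 26 lines (0.63), and Ccne1 of the S-phase class (0.34). Among mitotic members Tpx2 was lowest over the 23 lines (0.20), where Ccnb2 was at 0.56. Over the 23 lines Ccne1 was at -0.29, whereas the related Ccne2 was at 0.82. Outside the cell cycle lists, the genes most like the mitotic mean over 26 lines were Tacc3, Depdc1a (0.94 each), Haspin (0.93), Shcbp1, Dsn1, Mastl, Knl1 (0.92 each) and Fignl1 (0.91). Shcbp1 (0.96) and Fignl1 (0.95) were most like the S-phase mean, followed by BC055324 and Ercc6l (0.92 each) and Ncapd3, Tex30, Lrr1 and Timeless (0.91 each). All of them were below the range of the 23 lines in CarC, and over those 23 lines their correlations were 0.68 to 0.91. They were picked by correlation over 26 lines, where CarC was lowest for both means. Their low values in CarC thus follow in part from that choice.

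The first group comparison set the 7 spindle lines against the 12 non-spindle carcinoma lines, where limma called 0 of 41 members at an adjusted p under 0.05 and 8 of all 12641 genes (0.0633%). At an unadjusted p under 0.05 it found 2 members, and 20.7% of all genes. The mitotic mean was 9.89 ± 0.99 (SD, n = 7) with and 10.01 ± 0.28 (n = 12) without spindle pathology, and the S-phase mean 9.66 ± 1.14 and 9.84 ± 0.39. Without CarC the spindle means were 10.26 ± 0.22 and 10.08 ± 0.26 (n = 6). The median member difference was -0.14, and 0.04 over all genes, with 9 members higher and 32 lower in spindle lines. Without CarC it was 0.30, with 35 members higher and 6 lower, so 26 members turned from lower to higher, and again 0 were called. With the unassigned lines placed by their cell type label it was 0.08, with 26 higher and 15 lower. The 95% intervals of the 41 differences ran from -1.59 to 1.36, and 27 lay within 1 log2 unit of 0. The count over all genes moved with single lines, to 471 without MSC11B, 179 to 183 without MSC12 or MSC7A and 2 to 5 without any of 14 others, and members called were 0 each time.

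**Figure D4:**
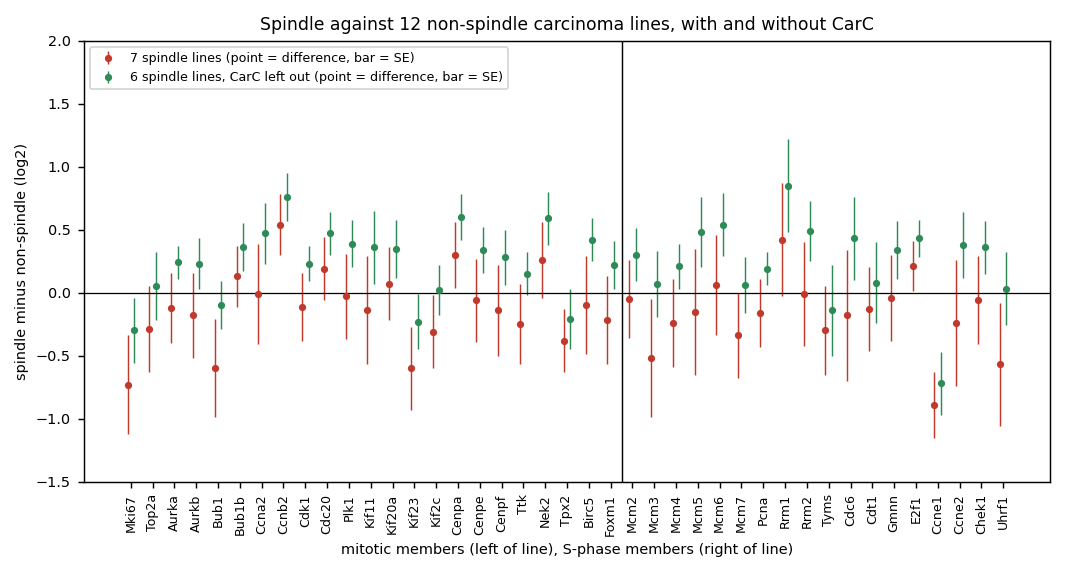
Spindle minus non-spindle difference of each measured member (log2, limma estimate with its SE), with all 7 spindle lines in red and without CarC in green, against the same 12 non-spindle lines. The green points lie above the red ones for all members, and 26 of them cross the zero line.

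Cyclin E1 had the smallest p of the members here. Ccne1, which with CDK2 drives entry into S phase, was at 6.29 in CarC, 6.74 in CarB, 7.25 in D3DP, 7.48 in D3, 7.78 in MSN2, 7.82 in A5 and 7.90 in H11. Its lowest, median and highest values in the non-spindle lines were 7.18 (MSCP1), 8.01 and 9.02 (MSC7A). All spindle lines were thus below the non-spindle median, though the groups overlapped. The difference was -0.89 (SE 0.26, limma adjusted p = 0.103), and -0.72 without CarC. Ccne2 had medians of 8.80 and 8.62 and a difference of -0.24 (95% interval -1.28 to 0.79), or 0.38 without CarC. That interval holds the difference of Ccne1, and the difference between the genes was not tested. Ccnb2 was at 9.29, 10.87 and 11.57 in spindle lines (lowest, median, highest) and at 9.67, 9.97 and 10.76 in non-spindle lines. It differed by 0.54 (SE 0.24, adjusted p = 0.211), with CarC the lowest of the spindle values.

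Of the wider lists in this comparison limma called 0 of 52 other mitotic genes, 0 of 51 other replication genes, 0 of 18 regulators and 0 of 16 inhibitor and arrest genes, with 2, 3, 2 and 5 of them at an unadjusted p under 0.05. The widest differences were those of Incenp (-1.13, SE 0.48), the passenger complex scaffold, of Cdca5 (-0.84, SE 0.45), of Dut (0.75, SE 0.20) and Asf1b (0.62, SE 0.47). In the regulators they were Mybl2 (-0.77, SE 0.48) and E2f6 (0.66, SE 0.26), and in the last list Gas1 (2.30, SE 0.77) and Gadd45a (1.28, SE 0.64).

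Between the 12 non-spindle lines and the 2 keratinocyte lines 0 of 41 members were called, beside 2.02% of all genes. No member had an unadjusted p under 0.05, beside 12% of all genes. The mitotic means were 10.01 ± 0.28 (n = 12) and 10.20 ± 0.17 (n = 2), and the S-phase means 9.84 ± 0.39 and 10.01 ± 0.26. The median member difference was -0.21, beside 0.02 over all genes, with 31 of 41 members lower in the carcinoma lines. Without NK it was 0.02, with 20 lower. With 2 keratinocyte lines the precision is low, and the interval of 1 member lay within 1 log2 unit of 0. Of the wider lists 1 gene was called, E2f2, an activating E2F, which was lower in the non-spindle lines (log2 difference -1.14, SE 0.26, adjusted p = 0.0213). That call was lost without NK (adjusted p = 0.643), where 203 genes were called, and without C5N 147 were.

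Between the 7 spindle and the 2 keratinocyte lines 0 of 41 members were called, beside 5.35% of all genes. Ccnb2 was at 9.91 in C5N and 9.49 in NK and differed by 0.96 (SE 0.40, adjusted p = 0.176). E2f1 was at 7.63 in C5N and 7.13 in NK, against 6.83, 8.28 and 8.66 in spindle lines, and differed by 0.75 (SE 0.34, adjusted p = 0.217). The other 6 spindle lines were above both keratinocyte lines for each gene, and CarC was below them. Without CarC limma called both, with differences of 1.19 (adjusted p = 0.0386) and 0.97 (adjusted p = 0.03). CarC was singled out for its low values of the members. The calls without it follow in part from that choice and describe how the result depends on a single line. These are 2 of 41 members, where 4.43% of all genes were called, so the share of members called is near that of all genes, and 4 members had an unadjusted p under 0.05, beside 19.6%. Members had a median difference of -0.36, beside 0.04 over all genes, and 35 of 41 were lower in spindle lines. Without CarC the median was 0.06 and 24 were higher, and with the unassigned lines placed by label it was 0.01 and 21 were higher. E2f2 was lower in spindle lines here too (-0.98, SE 0.27, adjusted p = 0.0407), a call lost without NK (adjusted p = 0.628) and without any of D3DP, MSN2, H11, CarC and CarB (0.0517 to 0.0658). From the inhibitor and arrest list Gadd45b was lower (-2.57, SE 0.56, adjusted p = 0.011) and Gas2 higher (2.55, SE 0.58, adjusted p = 0.0152). Both calls were lost without C5N (adjusted p = 0.0857 and 0.0725) or NK (0.111 and 0.192), where 258 and 284 genes were called in all.

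**Figure D5:**
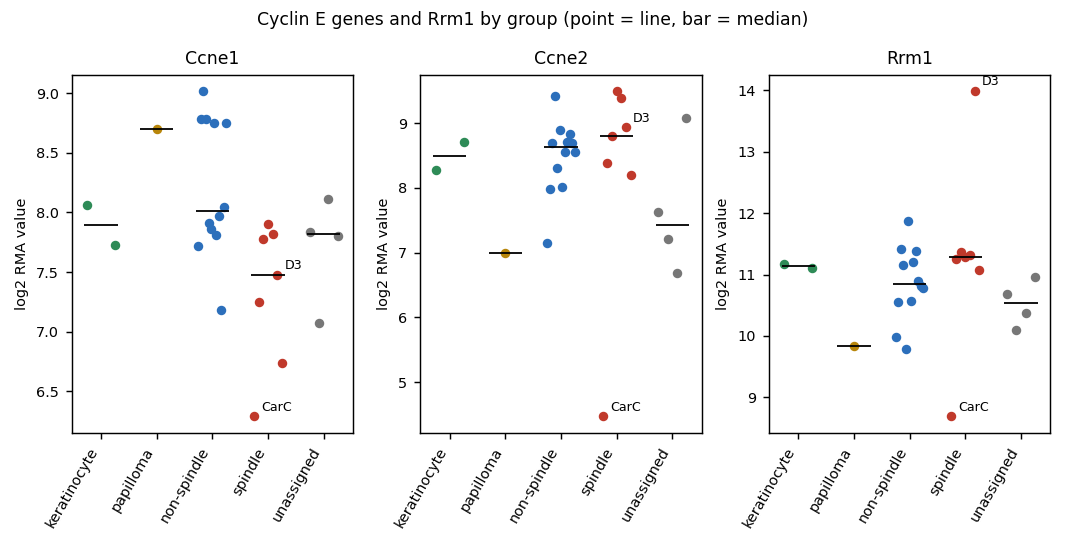
Log2 RMA values of Ccne1, Ccne2 and Rrm1 by group, with 1 point per line and a bar at the group median. The 7 spindle lines lie between 6.29 and 7.90 for Ccne1, CarC is lowest in all 3 panels, and D3 is highest for Rrm1 at 13.99.

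Within the 12 non-spindle lines, the 6 Spretus-cross lines were set against the 6 others. Of the others, PDV and PDVC57 share a name, as do B9, B9ras and B9rassmad, and each was fitted as a separate line. If lines that share a name are related, the SEs and p-values rest on fewer independent lines. limma called 0 of 41 members and 0 of all genes (0.0%), while 6 members had an unadjusted p under 0.05, beside 10.9% of all genes. The median member difference was -0.29, beside 0.02 over all genes, with 36 of 41 members lower in the Spretus-cross lines. With name families as a block it was -0.3, again with 36 lower. Members vary together over lines, so such counts are not counts of independent genes. Cdk1, the kinase that drives mitosis, was at 10.77, 10.95 and 11.57 (lowest, median, highest) in the Spretus-cross lines and at 11.37, 11.44 and 11.76 in the others, a difference of -0.46 (SE 0.15). Kif23 was at 9.13, 9.31 and 10.26 against 9.76, 10.22 and 10.65 (-0.70, SE 0.22). Mki67 was at 10.69, 11.22 and 12.28 against 11.54, 12.14 and 12.35 (-0.77, SE 0.25). In all 3 the groups overlapped. Top2a, the topoisomerase that untangles chromosomes, differed by -0.71 (SE 0.26), Plk1 by -0.55 (SE 0.21) and Tyms, the dTMP-making enzyme, by -1.04 (SE 0.38). All 6 had an adjusted p of 0.417.

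The Spretus-cross result turned on MSCP1, which was the highest Spretus-cross line for Cdk1, Kif23, Mki67, Top2a and Tyms. For Plk1 it was at 9.06, below the Spretus-cross median of 9.37. Without it limma called 163 genes (1.29%) and 4 of 41 members, all lower in the Spretus-cross lines: Top2a (-0.96), Mki67 (-0.96), Kif23 (-0.85) and Cdk1 (-0.57), with adjusted p of 0.0238 to 0.0496. MSCP1 is the line whose leaving out gave the most calls, and it was high in these same genes. All calls without it follow in part from that choice and describe how the result depends on a single line. At an unadjusted p under 0.05 limma then found 12 members, beside 20.9% of all genes. With MSCP1 included, 45 of 52 other mitotic genes and 42 of 51 other replication genes were lower, with 0 called in either and 9 and 3 at an unadjusted p under 0.05. Their widest differences were -0.88 for Cdca5 and Incenp and -0.72 for Exo1. Without MSCP1, 46 and 44 were lower, with 19 and 14 at an unadjusted p under 0.05. limma then called 2 of the other mitotic genes, Cdca5 (-1.06, SE 0.18, adjusted p = 0.0307), which protects sister chromatid cohesion, and the spindle protein gene Spag5 (-0.77, SE 0.16, adjusted p = 0.0491). It also called 2 of the 18 regulators, Mybl2 (-1.52, SE 0.26, adjusted p = 0.0299) and E2f8 (-1.49, SE 0.28, adjusted p = 0.0439), a repressor among the E2F factors, and 0 of the 51 replication genes.

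The keratinocyte and fibroblast markers moved with this comparison. With MSCP1, 12 of 12 keratinocyte markers were lower in the Spretus-cross lines (median -2.42, 0 called) and 8 of 10 fibroblast markers were higher (median 2.80, 0 called). Without MSCP1, 12 of 12 were lower (median -3.42, 0 called, 5 at an unadjusted p under 0.05) and 9 of 10 were higher (median 3.28, 0 called, 5 at an unadjusted p under 0.05). Their part in the member differences was not tested.

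D3 stood apart in a single member. Rrm1, the large subunit of ribonucleotide reductase, was at 13.99 in D3, while the next line was at 11.87 and D3DP, whose name it shares, at 11.26. The lowest and median of the other 25 lines were 8.69 and 10.96, so D3 was 8.18-fold above the median. The other Rrm1 probe sets were highest in D3 as well, at 13.76 (next line 11.59) and 7.34 (next line 4.57). Rrm2 was at 12.21 in D3, between the highest line, MSN2 (12.25), and a median of 11.55. Of the 20 tested genes that flank Rrm1 in the gene order, 10 on each side, 0 were highest in D3, beside 5.12% of all genes, and their median difference in D3 was -0.10 (-1.87 to 1.41). Trpc2, Hbb-bh1, Trim6, Trim34a, Trim12c, Trim30a, Trim30d and Usp17la were below the D3 array median of 5.04. Genes that low could hardly show a shared rise. The other flanking genes were above that median in D3, and none of them was highest there. The nearest to Rrm1 were Stim1 and Rhog before it (differences of -0.55 and -0.09) and Trim21 and Trim68 after it (0.26 and 1.39). What sets Rrm1 apart in D3 was not tested. By its difference in D3 from the median of the other 25 lines, Rrm1 ranked 54 among the 12641 genes.

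Members with and without the promoter words can be set beside the low lines, as a description of genes that were not chosen by these words. In CarC the median difference was -3.54 (-4.31 to -1.66) for the 8 measured members with an E2F word and -2.39 (-3.44 to -0.71) for the 25 without. It was -2.33 (-3.35 to -0.71) for the 15 with a CHR word and -2.84 (-4.31 to -1.09) for the 18 without. In MSCb1 it was -1.92 (-3.02 to -0.34) with and -1.30 (-2.87 to -0.04) without a CHR word, and -1.20 (-2.17 to -0.68) with and -1.92 (-3.02 to -0.04) without an E2F word. In 2945CA the medians were -0.76 with and -1.04 without a CHR word, and -1.25 with and -0.83 without an E2F word. The ranges overlap in every one of these pairs. The words follow the division into S-phase and mitotic members, so the letters and the class cannot be told apart here.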

How the data were processed

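The deposited table holds log2 values that the authors made with RMA, per the submitters' processing notes. The RMA version is not given in the sources used here. RMA gives every array nearly the same distribution, which hides any difference in RNA content per cell. Of 45037 probe sets 34945 had 1 gene symbol, 932 several and 9160 were unnamed here. For each gene the probe set with the highest mean was kept, and the 12641 genes above the array median on 2 or more arrays were tested.

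Lines were grouped where the cell type label and the flags agreed. Groups were compared in R 4.3.3 by limma 3.58.1 (lmFit, then eBayes), with spindle, non-spindle and keratinocyte lines in 1 model and the Spretus-cross lines within the non-spindle lines. All adjusted p-values are limma's after Benjamini-Hochberg adjustment over all genes tested, and called means below 0.05. The fit was tested on simulated data. The number of arrays limits the precision.

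The members and lists were chosen with earlier results of these data known. Every member could be named. Of the other lists, up to 4 called genes and otherwise the 2 with the largest difference were named, or single genes outside a range where they were few. The lists were keratinocyte, fibroblast, immune, endothelial and melanocyte markers, other mitotic and other replication genes, E2F, Myb and DREAM regulators, and CDK inhibitors and growth arrest genes. Alternatives were other probe sets, filters and array scaling, lines placed by label, a name family block and leaving out lines.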

Additional observations from a re-analysis of the deposited data

Results flagged for a closer look

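Each member, both class means and the S-phase minus the mitotic mean were examined for a line far from the rest of its group, in the 7 spindle lines, the 6 Spretus-cross and the 6 other non-spindle lines. A line was picked out where its gap to the nearest other line, divided by the group's range, passed Dixon's 95% critical value. Of 132 sets 44 were picked out, and in 36 of them the line was CarC, lowest of the spindle lines. CarC had been singled out for its low values of these same members, so its 36 sets follow from that choice and are a description of 1 array. Chance picks out about 1 in 20 such sets, a rate that cannot be set against those of CarC.

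In CarC both class means were picked out, at 7.69 for the mitotic and 7.14 for the S-phase members, where the next spindle line was at 9.88 and 9.72. The 20 mitotic members were Mki67 at 8.38, Top2a at 9.05, Aurka at 7.79, Aurkb at 6.08, Bub1 at 6.90, Ccna2 at 7.80, Cdk1 at 9.16, Cdc20 at 10.06, Plk1 at 7.12, Kif11 at 5.59, Kif20a at 8.0, Kif23 at 7.02, Kif2c at 7.19, Cenpa at 8.98, Cenpe at 7.30, Cenpf at 7.28, Ttk at 6.0, Nek2 at 7.79, Birc5 at 7.47 and Foxm1 at 5.71. The 14 S-phase members were Mcm2 at 7.57, Mcm3 at 5.92, Mcm4 at 7.81, Mcm5 at 7.04, Mcm6 at 8.02, Mcm7 at 9.50, Pcna at 10.71, Rrm2 at 8.37, Cdc6 at 4.45, Gmnn at 7.36, E2f1 at 6.83, Ccne2 at 4.47, Chek1 at 5.75 and Uhrf1 at 6.22. The widest gap relative to the range was that of Mcm5, where the next spindle line was at 11.18.

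The other 8 sets were in non-spindle lines, out of 88 examined there, which are not independent of each other. In the Spretus-cross lines MSCP1 was highest for Top2a (12.22, next line 11.01) and Gmnn (10.18, next 9.53). SN161 was lowest for Kif20a (8.50, next 9.62) and MSC11B for Tpx2 (9.11, next 10.20). In the other non-spindle lines B9 was lowest for Cdt1 (8.99, next 11.02), Chek1 (7.98, next 8.45) and the S-phase mean (9.50, next 9.99), and B9rassmad for Mki67 (11.54, next 12.09). What sets these lines apart was not tested.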

How the results depend on the processing

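Every call on the members kept its side of the threshold under other probe sets, filters, array scaling and the name family block. The exceptions were E2f1 (0.94, adjusted p = 0.0437), the 1 member called between spindle and keratinocyte lines with unassigned lines placed by label, and the calls without CarC or MSCP1 given with the results. The median member difference changed sign with lines placed by label, to 0.08 between spindle and non-spindle and 0.01 between spindle and keratinocyte lines, without CarC in both, and without NK (0.02) between non-spindle and keratinocyte lines. Tyms turned to 0.02 in the Spretus-cross comparison with the probe set of the largest SD. The cause was not tested.

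Over all genes, the 8 calls between spindle and non-spindle lines became 5 with the mean of all probe sets, 3 with no filter, 44 with genes kept if above the median on 13 of 26 arrays, 2 with arrays shifted to 1 median or the family block, 0 with lines placed by label (limma, 1430 at an unadjusted p under 0.05) and 1954 without MSC12, MSC11B and MSC7A together. Leaving out 1 line gave 2 to 471 genes there (MSC12 179, MSC7A 183), 147 to 352 between non-spindle and keratinocyte lines, 258 to 765 between spindle and keratinocyte lines (NK 284) and 0 to 163 between Spretus-cross and other lines. Members called then ran 0 to 0, 0 to 0, 0 to 2 and 0 to 4.

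With the mean of all probe sets, the gap of the class mean to the median class mean of the other 23 lines was -2.07 (mitotic) and -2.50 (S-phase) in CarC and -1.66 (mitotic) in MSCb1, in place of -2.45, -2.90 and -2.08. This is another measure than the median difference over members given with the results (-2.56, -2.84 and -1.94). Before the start alone, CHR words were in 36.8% of mitotic members and E2F words in 33.3% of S-phase members. The shares of all tested genes there were 12.7% (CHR), 3.91% (E2F) and 40.5% (CCAAT). No paired analysis was possible because replicate numbers only follow the order of deposition. Depth does not apply to arrays; values near the array median are close to background and their differences are compressed.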
